A study of Mus musculus with 2 samples.

Results

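The genes described here are 39 interferon-stimulated genes and sensors of the mouse, out of 55536 annotated genes. They were chosen by symbol and not by a measured value, but earlier results of these data were known at that time. They cover interferon receptors (3 genes), signal transducers and interferon regulatory factors (5), RNA sensors and their partners (5), the OAS family (5), the IFIT family (4), ISG15 and its protease (2), other antiviral effectors (9) and interferon-inducible GTPases (6). All 39 symbols matched 1 gene each in both deposited quantifications.

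Adrenal glands of male B6CASTF1/J mice were used for total RNA sequencing. The mice are a first-generation cross of the C57BL/6J laboratory strain with the wild-derived CAST/EiJ strain, and were aged 25 days. The single group held 2 libraries, prepared with a directional kit from 300 ng of tissue RNA that had been reduced in ribosomal RNA and mixed with ERCC spike-in transcripts. By its biosample label replicate 1 came from animal 3 and replicate 2 from animal 4, but the library labels give animal 3 in both cases and the donor label is shared. No treatment, infection or second condition was part of the design, so the results are the levels of these genes in adrenal tissue and the difference between the libraries. With 1 library on each side that difference has no replicate check, and its tests compare these libraries, not conditions.

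Replicate 1 held 35283841 expected counts and replicate 2 held 35156690 (fractional counts arise where reads fit several transcripts). Markers of the labelled tissue were present: all 8 genes of an adrenal cortex list and all 6 of a medulla list reached a TPM of 1 in each library, where TPM is a level scaled by transcript length and by the summed level of the library. The libraries differed in transcripts of other tissues. A list of 10 liver genes summed to 116 and 23251 TPM in replicates 1 and 2, and a list of 9 skeletal muscle genes summed to 1443 and 1.91 TPM, with Tnni2 at 0 counts in replicate 2. The cortex list was lower in replicate 2, at 7126 against 13056 TPM. Every difference between the libraries below stands beside these values, and their part in it was not tested.

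Interferons are secreted proteins that cells release on sensing foreign nucleic acid. Type I interferons bind the receptor pair IFNAR1 and IFNAR2, and the kinases bound to it activate STAT2, which joins IRF9 in the ISGF3 complex. Interferon gamma binds its own receptor, which includes IFNGR1. ISGF3 binds the interferon-stimulated response element (ISRE), built from repeats of GAAA, and the gamma response acts mainly through the gamma-activated site (GAS). The genes switched on in this way block viral replication, tag proteins, attack vacuoles of intracellular microbes or feed back on the pathway, and many have a low constitutive level in unstimulated tissue.

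Promoter stretches are shown for 10 of the 17 genes in which an ISRE match was found. This feature did not enter the list of 39 genes. Of the 10, Oas1a, Bst2, Gbp7 and Igtp hold a GAS match as well. Ddx58, Eif2ak2, Gbp2, Ifih1, Irgm1, Rsad2 and Stat2 also hold an ISRE match and are not shown. Irf3 is added as a gene with neither motif. Ifi44, Ifngr1, Irf7, Irf9, Oasl1, Oasl2, Trim25 and Xaf1 hold neither and are not shown. How the motifs relate to differences between the libraries was not tested. The stretches are reference sequence (RefSeq, GRCm38.p6), written 5′ to 3′ on the strand of the gene, and each ends before the annotated transcript begins. Capitals mark matches to the ISRE motif (GAAANNGAAA or its reverse complement TTTCNNTTTC) or to the GAS motif (TTCNNNGAA, its own reverse complement), and overlapping matches run together. The stretches lie as follows: Isg15 at chr4:156200819-156200938 (minus strand), Ifit1 at chr19:34640769-34640870 (plus strand), Ifit3 at chr19:34583329-34583528 (plus strand), Ifit3b at chr19:34607757-34607956 (plus strand), Oas1a at chr5:120907526-120907645 (minus strand), Oas3 at chr5:120777662-120777779 (minus strand), Bst2 at chr8:71537473-71537622 (minus strand), Gbp3 at chr3:142559924-142560025 (plus strand), Gbp7 at chr3:142530216-142530335 (plus strand), Igtp at chr11:58199436-58199555 (plus strand) and Irf3 at chr7:44997528-44997647 (plus strand).
Isg15: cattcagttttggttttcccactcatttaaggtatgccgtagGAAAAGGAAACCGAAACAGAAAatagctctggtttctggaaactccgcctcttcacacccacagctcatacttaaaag
Ifit1: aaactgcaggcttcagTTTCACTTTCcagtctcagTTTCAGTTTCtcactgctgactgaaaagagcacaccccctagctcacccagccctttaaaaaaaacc
Ifit3: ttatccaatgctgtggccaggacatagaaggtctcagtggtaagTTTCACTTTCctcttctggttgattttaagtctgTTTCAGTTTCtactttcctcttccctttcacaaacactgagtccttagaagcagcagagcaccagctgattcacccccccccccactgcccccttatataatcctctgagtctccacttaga
Ifit3b: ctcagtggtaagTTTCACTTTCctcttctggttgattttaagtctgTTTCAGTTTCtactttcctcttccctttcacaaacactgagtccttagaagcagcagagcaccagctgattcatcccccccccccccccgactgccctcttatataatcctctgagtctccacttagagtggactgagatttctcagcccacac
Oas1a: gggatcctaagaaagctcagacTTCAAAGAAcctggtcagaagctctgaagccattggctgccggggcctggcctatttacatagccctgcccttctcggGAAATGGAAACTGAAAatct
Oas3: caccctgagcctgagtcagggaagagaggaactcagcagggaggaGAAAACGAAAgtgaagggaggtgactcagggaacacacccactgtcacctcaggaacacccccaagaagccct
Bst2: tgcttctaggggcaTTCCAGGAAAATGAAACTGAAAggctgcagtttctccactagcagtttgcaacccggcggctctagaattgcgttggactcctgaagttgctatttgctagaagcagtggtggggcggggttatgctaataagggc
Gbp3: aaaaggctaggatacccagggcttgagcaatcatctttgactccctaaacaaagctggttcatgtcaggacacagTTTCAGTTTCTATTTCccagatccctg
Gbp7: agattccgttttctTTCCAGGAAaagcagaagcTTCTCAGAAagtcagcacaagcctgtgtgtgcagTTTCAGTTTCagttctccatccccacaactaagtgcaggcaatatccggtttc
Igtp: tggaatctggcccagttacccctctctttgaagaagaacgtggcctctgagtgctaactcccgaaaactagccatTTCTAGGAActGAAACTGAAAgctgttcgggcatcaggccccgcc
Irf3: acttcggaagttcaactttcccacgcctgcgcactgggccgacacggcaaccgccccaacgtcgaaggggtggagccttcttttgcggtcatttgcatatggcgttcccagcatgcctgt

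Isg15 carried 3 overlapping ISRE matches, which began -78, -72 and -66 bases from the RefSeq start site. Ifit1, Ifit3 and Ifit3b each carried 2 separate matches. The Ifit3 and Ifit3b stretches are near copies: shifted by 32 bases against each other, 138 of 168 aligned bases were identical (82.1%). No gap was allowed in this alignment, so a difference in length inside the stretch lowers that value. In Bst2 a GAS match overlapped the first of 2 ISRE matches, and in Igtp a GAS match lay just before an ISRE match. Gbp7 held 2 GAS matches and 1 ISRE match.

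RefSeq promoter windows of 250 bases before to 50 bases after the start site were found for 31 of the 39 genes. Dhx58, Ifi27, Iigp1, Mx1, Mx2, Oas2, Rtp4 and Usp18 had no entry. An ISRE match on either strand was present in 17 of the 31 genes (54.8%), against 3.99% of 27025 gene symbols in the table. Counted by window, it was 17 of 35 windows (48.6%) against 3.44% of 32851 windows of the same length. A GAS match was present in 10 of 31 genes (32.3%), against 9.55% of all symbols, and 5 genes held both motifs. By role, all 5 GTPase genes with a window held an ISRE match, as did 3 of 4 IFIT genes and 3 of 4 sensor genes with a window, whereas 0 of 3 receptor genes did. A GAS match was held by 2 of 3 receptor genes, 2 of 5 GTPase genes, 1 of 4 IFIT genes and 1 of 4 sensor genes. Differences between roles were not tested. Of the 5 transducers and regulatory factors only Stat2 held an ISRE match, and Irf1 held a GAS match that began -90 bases from its start site. These are matches of letters in a fixed window, and binding was not measured.

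**Figure D1:**
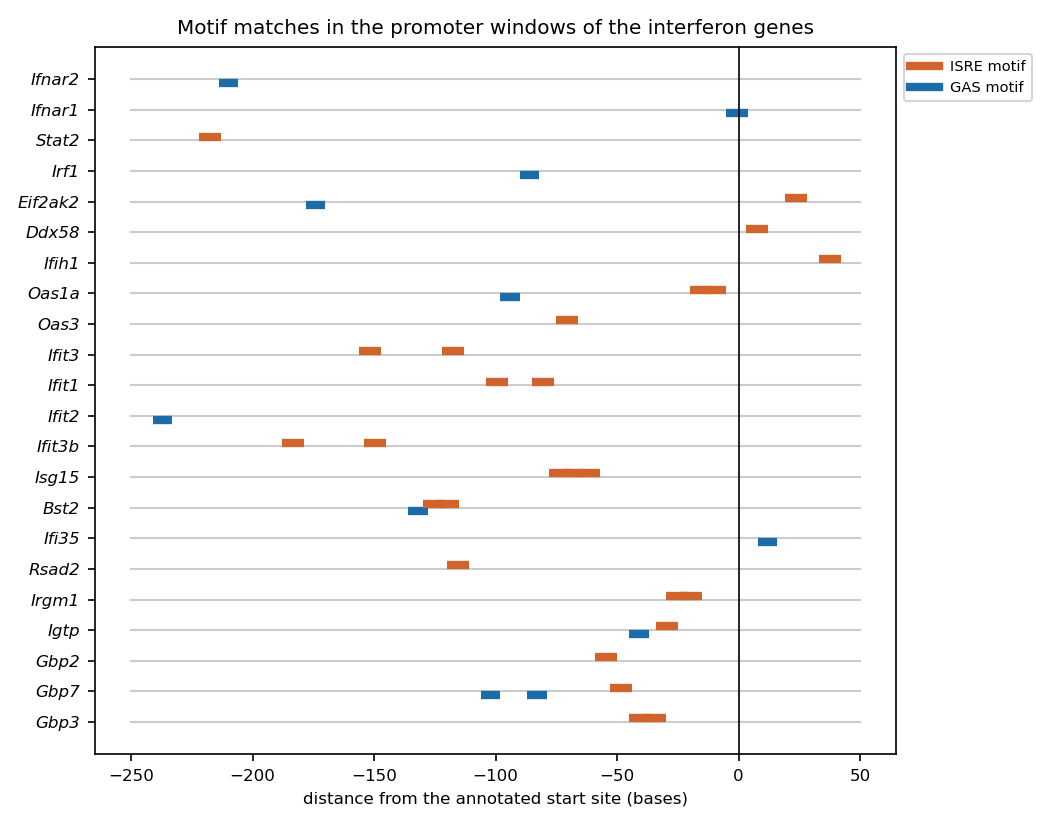
Positions of ISRE matches (orange) and GAS matches (blue) in the promoter windows of the interferon genes with at least 1 match, by distance from the RefSeq start site in bases (x axis). Matches lie mostly in the bases before the start site, and the ISRE matches of Ddx58, Eif2ak2 and Ifih1 lie after it.

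The first question was which of these genes are expressed in the adrenal gland. Of the 39 genes 33 reached a TPM of 1 in both libraries, while Oas2, Oas3 and Oasl1 were below 1 in both and Ifit3b, Usp18 and Iigp1 reached it in replicate 2 alone. The 39 genes took 0.0958% of the gene counts of replicate 1 (0.0948 to 0.0969, a 95% exact Clopper-Pearson interval for counting error only) and 0.0979% in replicate 2 (0.0968 to 0.0989). Their summed level was 831 and 779 TPM in replicates 1 and 2, or 0.0805% ± 0.0036 of all TPM (SD, n = 2). One gene, Ifi27, made up 60.9% and 51.8% of that sum. Without it the other 38 genes summed to 325 and 375 TPM. The median gene stood at 3.71 and 7.16 TPM in replicates 1 and 2.

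**Figure D2:**
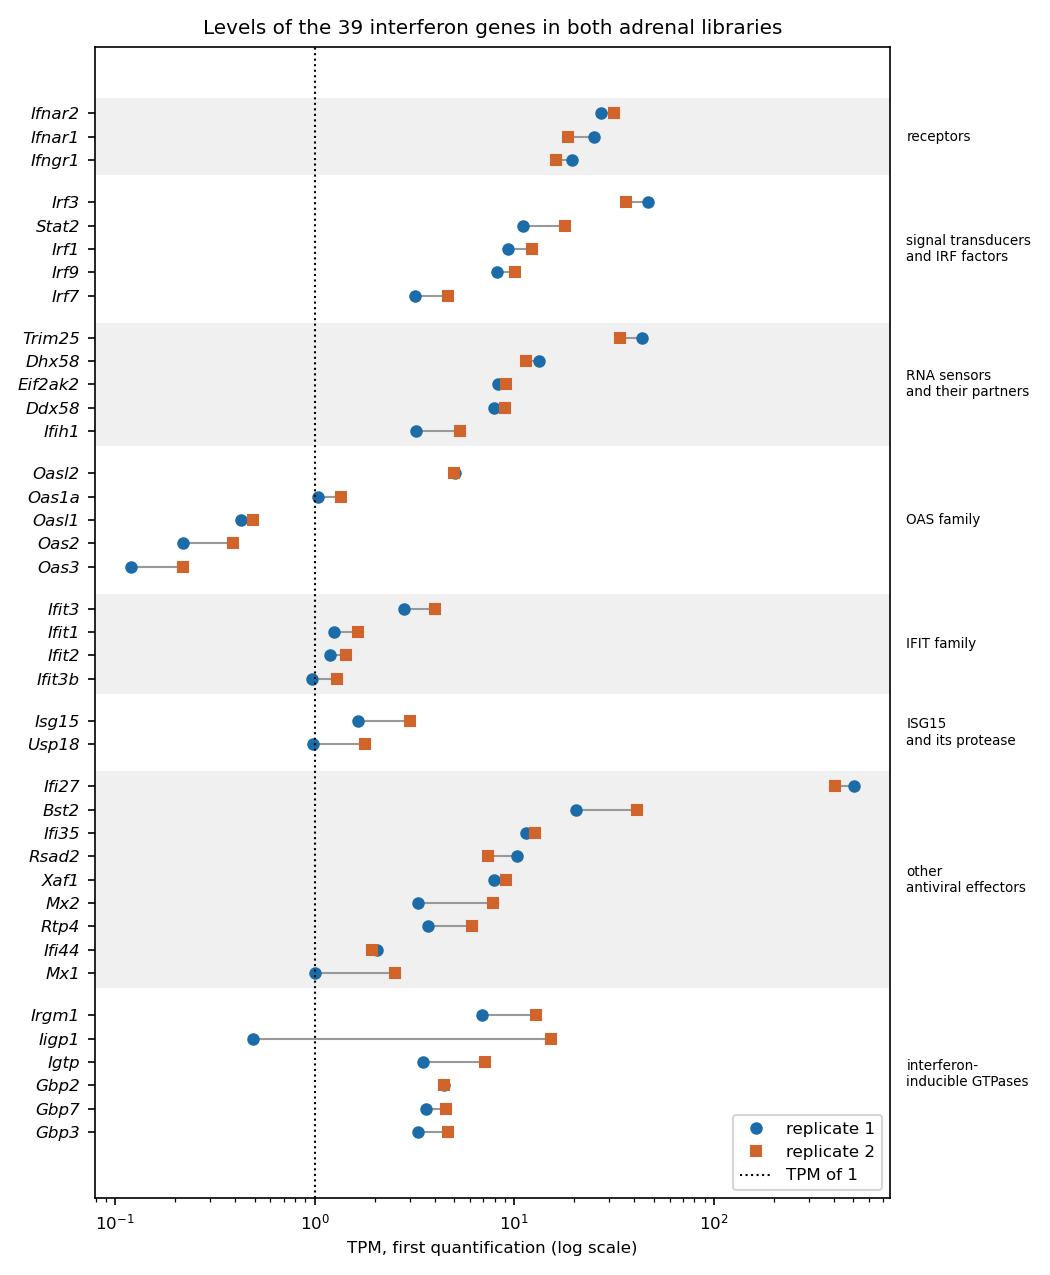
TPM of each of the 39 genes in the first quantification (x axis, log scale) in replicate 1 (blue circles) and replicate 2 (orange squares), by role, with a dotted line at a TPM of 1. Ifi27 stands far to the right at 506 and 404 TPM, and Iigp1 has the widest gap, from 0.49 to 15.3 TPM.

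The second question was how far the libraries differed in these genes. Counts were scaled by the TMM method, which sets the bulk of genes equal between the libraries, and a gene was called where a two-sided exact binomial test on its counts, adjusted by the Benjamini-Hochberg method over 19801 genes with at least 10 counts, gave a p below 0.05. The test covers counting error only. TPM values are not TMM-scaled, so a pair of TPM values and the log2 ratio beside it can differ in size or direction. Of the 39 genes 29 were higher in replicate 2, where 20.7% of all tested genes were called higher, and 3 were lower, where 18.4% of all tested genes were called lower. The 3 lower genes were Ifi27, Rsad2 and Trim25, and Ifit2, Ifi44, Dhx58, Irf3, Ifnar1, Ifngr1 and Gbp2 were not called. At least 2-fold higher were 11 genes (8.56% of all tested genes), and at least 2-fold lower 0 genes (2.29% of all tested genes). The 11 were Isg15, Ifih1, Mx2, Oas2, Oas3, Oasl1, Bst2, Usp18, Igtp, Irgm1 and Iigp1. The median log2 ratio of replicate 2 over replicate 1 was 0.62 for these genes and -0.01 for all genes tested. In bulk tissue, fewer cells of a type and less RNA per cell cannot be told apart.

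The count of calls moved with the scaling. Total counts shift the median of all tested genes to -0.24 and spike-in totals shift it to -0.36. With total counts 19 of the 39 genes were higher (12.7% of all tested genes) and 6 lower (43.0%), with a median of 0.39. With spike-in totals 16 were higher (10.8%) and 7 lower (53.3%), with a median of 0.26. The 16 genes higher under all 3 scalings were Isg15, Ifit3, Ifih1, Ddx58, Mx2, Oas2, Oas3, Bst2, Usp18, Irf1, Irf7, Stat2, Igtp, Irgm1, Iigp1 and Rtp4. Ifi27, Rsad2 and Trim25 were lower under all 3, and 0 genes were called in opposite directions. DESeq2 size factors gave the same call as TMM scaling for all 39 genes, 29 higher (20.3% of all tested genes) and 3 lower (18.9%), and are not counted among these 3 scalings. When a variation of 0.2 between animals was assumed in an exact test of edgeR, 4 genes were higher (6.57% of all tested genes) and 0 lower (1.31%). Those 4 were Mx2, Bst2, Igtp and Iigp1.

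**Figure D3:**
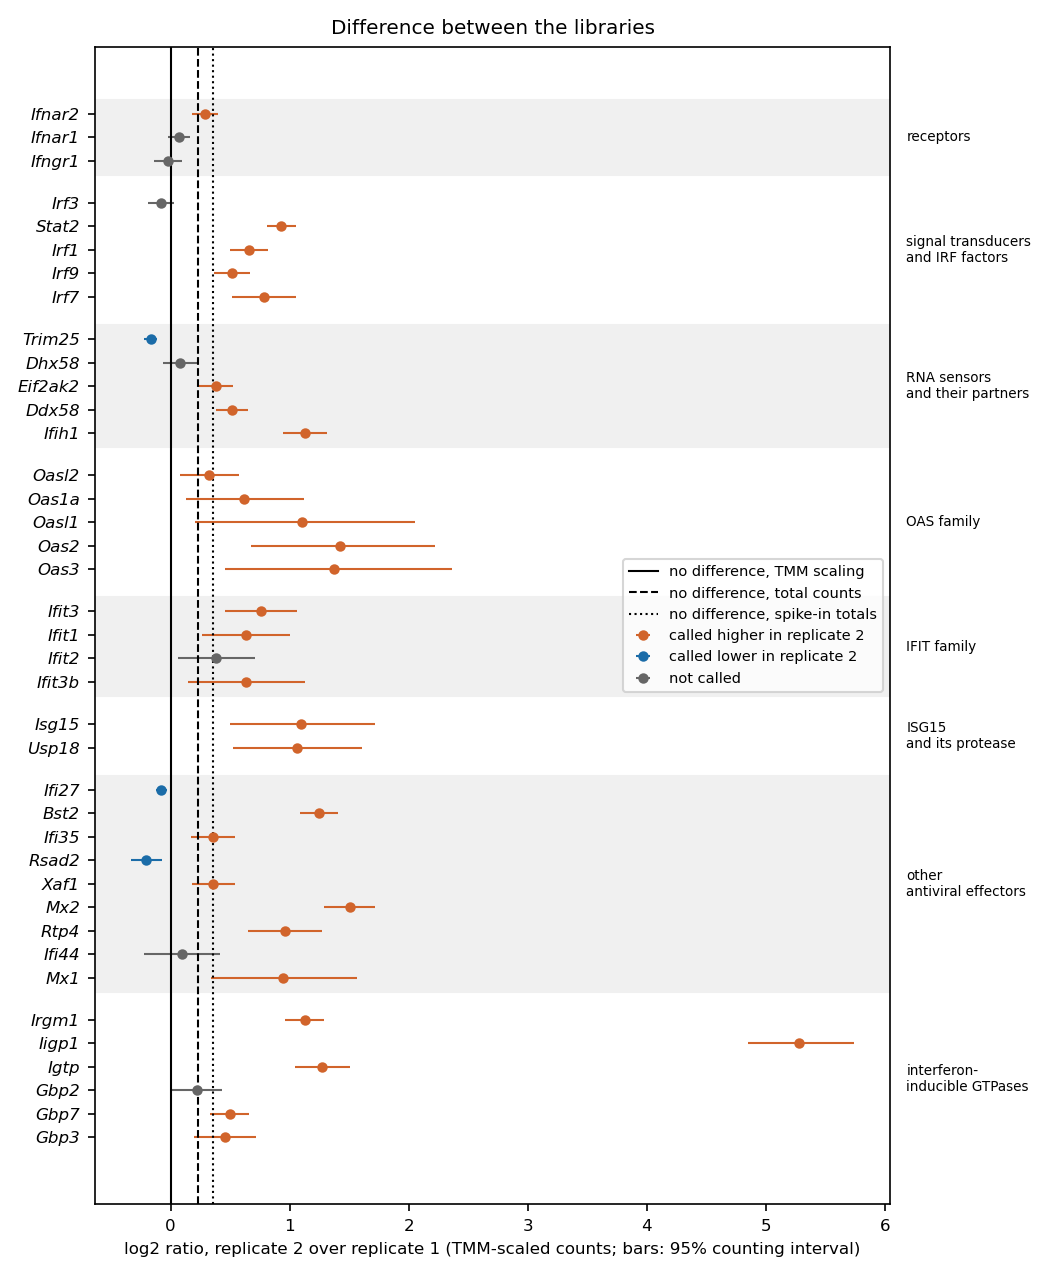
Log2 ratio of TMM-scaled counts, replicate 2 over replicate 1, for each gene by role (x axis), with 95% counting intervals and colours for the call. Most genes lie to the right of the line of no difference, the dashed and dotted lines show where that line would stand under the other 2 scalings, and Iigp1 stands apart at 5.28.

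The receptors were among the higher genes in level and differed little between the libraries. Ifnar2, a chain of the type I receptor, was at 27.3 and 31.6 TPM in replicates 1 and 2, and its log2 ratio was 0.29 (95% counting interval 0.18 to 0.40, adjusted p = 1.95e-06, exact binomial test). Ifnar1, its partner chain, was at 25.1 and 18.7 TPM and was not called (log2 ratio 0.07, adjusted p = 0.244). Ifngr1, the ligand-binding chain of the interferon gamma receptor, was at 19.5 and 16.2 TPM and was not called (log2 ratio -0.02, adjusted p = 0.857). The small difference in Ifnar2 depended on the scaling: it was 0.05 with total counts, -0.07 with spike-in totals and called with neither. Ifnar1 and Ifngr1 were called lower with both of those scalings. Ifnar1 and Ifnar2 lie within 135 kb on chromosome 16.

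Of the transducers and regulatory factors, 4 of 5 were called higher in replicate 2, where 20.7% of all tested genes were called higher. Stat2, a subunit of ISGF3 (ENSMUSG00000040033, chr10:128270559-128292849), was at 11.1 TPM and 18.1 TPM, and its log2 ratio was 0.93 (0.81 to 1.05, adjusted p = 4.85e-54, exact binomial test). Irf9, the DNA-binding partner in the same complex, was at 8.19 and 10.1 TPM, with a log2 ratio of 0.51 that was not called with spike-in totals (adjusted p = 0.0709). Both of these ISGF3 subunits were thus higher in replicate 2 under TMM scaling. The span of Irf9 overlaps that of Rnf31 on the same strand, which had 888 and 818 counts. Against 653 and 789 counts of Irf9, the posterior SD was 0.56 and 0.70 counts. Irf7, a regulator that amplifies type I interferon production, was at 3.17 and 4.64 TPM (log2 ratio 0.78), from 198 and 289 counts. The annotated span of Irf7 overlaps that of Phrf1 on the opposite strand, which had 2183 and 1625 counts, and whether counting used the strand is not given in the sources used here. Irf1, a factor induced mainly by interferon gamma, was at 9.34 and 12.3 TPM (log2 ratio 0.66).

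Irf3, the constitutive factor that sensors activate to start interferon transcription, was the most abundant of the factors. It was at 46.7 and 36.3 TPM in replicates 1 and 2, and its log2 ratio of -0.08 was not called (adjusted p = 0.285, exact binomial test). With total counts and spike-in totals it was called lower, at -0.31 and -0.44. The level of Irf3 over that of Irf7 was 14.7 in replicate 1 and 7.81 in replicate 2. The constitutive factor therefore stood above the inducible one in both libraries.

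The RNA sensors were all above a TPM of 1 in both libraries, and they did not move as a group. Ifih1, which encodes MDA5, a sensor of long double-stranded RNA, was at 3.23 TPM and 5.32 TPM (log2 ratio 1.13, 0.95 to 1.31, adjusted p = 4.84e-35, exact binomial test). Ddx58, which encodes RIG-I, a sensor of RNA with a 5′ triphosphate, was at 7.90 and 9.01 TPM (log2 ratio 0.52). Dhx58, which encodes LGP2, a relative of both that lacks the signalling domains, was at 13.4 and 11.4 TPM and was not called (log2 ratio 0.08, adjusted p = 0.437). Ifih1 and Ddx58 were higher under all 3 scalings, while Dhx58 was called lower with spike-in totals, at -0.28. Dhx58 stood above Ddx58, and Ddx58 above Ifih1, in both libraries and both quantifications.

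Trim25, the ubiquitin ligase that assists RIG-I signalling (ENSMUSG00000000275, chr11:88999376-89020293), was the most abundant of this group. It was at 43.7 and 34.0 TPM in replicates 1 and 2, with 6401 and 4834 counts, and its log2 ratio was -0.17 (-0.22 to -0.11, adjusted p = 8.20e-09, exact binomial test). The difference was small, and its call came with the largest counts of the group. Eif2ak2, which encodes PKR, a kinase that halts translation on binding double-stranded RNA, was at 8.32 and 9.06 TPM. Its log2 ratio of 0.38 was called with TMM scaling and DESeq2 size factors, but not with total counts or spike-in totals.

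The OAS genes encode enzymes that make 2′-5′-linked oligoadenylates to activate RNase L, and OAS-like proteins. They had the lowest median level of any role, at 0.43 and 0.49 TPM. Oasl2 was at 5.04 and 5.02 TPM and Oas1a at 1.04 and 1.35 TPM, whereas Oasl1 was at 0.43 and 0.49, Oas2 at 0.22 and 0.39 and Oas3 at 0.12 and 0.22 TPM. All 5 were called higher in replicate 2, at log2 ratios from 0.33 for Oasl2 to 1.42 for Oas2. The counts were 22 and 50 for Oas2 and 15 and 33 for Oas3, so their intervals were wide (0.67 to 2.22 and 0.46 to 2.36). Only Oas2 and Oas3 were also called under both other scalings. The counts of Oasl1, 17 and 31, differed more than its TPM, and its level was placed on different transcripts, with 1.55% and 87.4% on the coding Oasl1-201. The second quantification did not show this: it had Oasl1-201 at 0 TPM in both libraries and the coding Oasl1-202 at 0.317 and 0.736 TPM. Oas1a, Oas2 and Oas3 lie within 177 kb on chromosome 5, and Oasl1 and Oasl2 within 41.0 kb on the same chromosome.

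The IFIT proteins bind viral RNA ends and restrain its translation. Their genes were at about 1 to 4 TPM, and 3 of 4 were called higher (20.7% of all tested genes). Ifit3 was at 2.80 TPM and 4.02 TPM (log2 ratio 0.76, 0.46 to 1.06, adjusted p = 2.31e-06, exact binomial test) and was higher under all 3 scalings. Ifit1 was at 1.25 and 1.65 TPM (log2 ratio 0.63) and Ifit3b at 0.97 and 1.29 TPM (log2 ratio 0.64), and neither was called with the other 2 scalings. Ifit2 was at 1.20 and 1.44 TPM and just missed the threshold (log2 ratio 0.38, adjusted p = 0.0520). Ifit3 and Ifit3b are near copies that share reads, and the authors' posterior SD of each count was 4.94 in replicate 1 and 5.69 in replicate 2. Against counts of 157 and 225 for Ifit3 and 62.7 and 83.3 for Ifit3b that uncertainty was small, and Ifit3 stood 2.89-fold and 3.12-fold above Ifit3b in level. The 4 genes lie within 99.3 kb on chromosome 19.

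Isg15, a ubiquitin-like modifier that is attached to newly made proteins, was at 1.65 and 3.01 TPM in replicates 1 and 2. Its counts were 37 and 67, and its log2 ratio was 1.10 (0.49 to 1.72, adjusted p = 0.000818, exact binomial test). Usp18, the protease that removes ISG15 and damps signalling at IFNAR2, was at 0.98 and 1.79 TPM (log2 ratio 1.06, 0.53 to 1.61). The modifier and its protease were thus both low and both higher in replicate 2 under all 3 scalings. Isg15, often used as a marker of interferon response, was only the gene of rank 29 in level among the 39 in both libraries.

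Among the other effectors Ifi27, which encodes a small protein of mitochondrial and nuclear membranes (ENSMUSG00000064215, chr12:103434211-103440239), dominated the level of the whole set. It was at 506 and 404 TPM in replicates 1 and 2, above 99.8% and 99.6% of nuclear protein-coding genes. Its counts of 9660 and 7760 gave a log2 ratio of -0.08 (-0.12 to -0.03, adjusted p = 0.00156, exact binomial test), a 1.06-fold difference. Ifi27 was therefore nearly level between the libraries under TMM scaling while most of the other genes were higher in replicate 2. With total counts and spike-in totals its log2 ratio was -0.31 and -0.44.

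Bst2 encodes tetherin, which holds budding virions at the cell surface (ENSMUSG00000046718, chr8:71534255-71537456). It was at 20.3 and 41.2 TPM in replicates 1 and 2, which moved it from rank 6 to rank 2 among the 39 genes. Its log2 ratio was 1.25 (1.09 to 1.41, adjusted p = 1.17e-56, exact binomial test), and it was still called with the assumed variation of 0.2 (adjusted p = 0.0413, edgeR exact test).

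Mx2 and Mx1 encode dynamin-like antiviral GTPases, and both genes are known to carry disabling mutations in many laboratory strains, C57BL/6 among them. Mx2 was at 3.28 TPM and 7.87 TPM (log2 ratio 1.50, 1.29 to 1.72, adjusted p = 7.21e-48, exact binomial test). Mx1 was at 1.01 and 2.53 TPM (log2 ratio 0.94, 0.34 to 1.57, adjusted p = 0.00565) and was not called with spike-in totals (adjusted p = 0.0863). The reads of both parental alleles were assigned to the C57BL/6-based reference, and the effect of that on Mx1 and Mx2 was not tested. Of the level of Mx1, 62.7% in replicate 1 and 44.4% in replicate 2 fell on Mx1-207, a transcript annotated as non-coding. In the second quantification Mx1-207 was at 0 TPM in both libraries, and the coding Mx1-204 led with 0.836 and 3.72 TPM.

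Rsad2 encodes viperin, an enzyme that makes a chain-terminating nucleotide, and was the only effector beside Ifi27 called lower in replicate 2. It was at 10.4 and 7.38 TPM in replicates 1 and 2, with 1149 and 845 counts and a log2 ratio of -0.20 (-0.33 to -0.08, adjusted p = 0.0059, exact binomial test). Its neighbour Cmpk2, a nucleotide kinase gene that lies 12751 bases away on the opposite strand of chromosome 12, was at 7.18 and 4.45 TPM and had a log2 ratio of -0.34 (-0.51 to -0.17). Both genes of this neighbouring pair were thus lower in replicate 2.

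Rtp4, which encodes a transmembrane chaperone with antiviral activity, was at 3.71 and 6.14 TPM (log2 ratio 0.96) and was higher under all 3 scalings. Its annotated span overlaps Masp1 on the opposite strand, which had 3865 and 4170 counts, so the limit given for Irf7 holds for it too. Ifi35, which encodes a partner of NMI, was at 11.4 and 12.8 TPM (log2 ratio 0.35). Xaf1, which encodes a pro-apoptotic zinc finger protein, was at 7.95 and 9.12 TPM (log2 ratio 0.36). Ifi35 and Xaf1 were called with TMM scaling and DESeq2 size factors, but not with total counts or spike-in totals. Ifi44, a cytoplasmic interferon-induced gene, was at 2.06 and 1.93 TPM and was not called under any of the 3 scalings.

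The interferon-inducible GTPases, which assemble on vacuoles that hold microbes, had 5 of 6 genes called higher (20.7% of all tested genes). Their summed level was 22.2 and 49.0 TPM in replicates 1 and 2, a ratio of 2.20, and much of that gap came from Iigp1. Without it the other 5 genes summed to 21.8 and 33.7 TPM, a ratio of 1.55, below the 1.83 of Isg15 and Usp18 together. Iigp1, an immunity-related GTPase (ENSMUSG00000054072, chr18:60376027-60392634), was at 0.49 and 15.3 TPM in replicates 1 and 2. Its counts were 45 and 1484, a 38.9-fold difference (95% counting interval 28.9 to 53.6), or 5.28 on the log2 scale. It was called under every scaling and with the assumed variation of 0.2 (adjusted p = 1.18e-22, edgeR exact test). Iigp1 is known to be expressed in unstimulated mouse liver, and liver genes differed in the same direction (Alb, serum albumin, at 16.3 and 11949 TPM), but their part in this difference was not tested.

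Igtp and Irgm1, GTPases of the same immunity-related class, differed far less than Iigp1. Igtp was at 3.50 TPM and 7.16 TPM (log2 ratio 1.27, 1.04 to 1.51, adjusted p = 2.48e-28, exact binomial test). Irgm1 was at 6.89 TPM and 12.9 TPM (log2 ratio 1.12, 0.96 to 1.29, adjusted p = 9.59e-45). Both were about 2-fold higher in replicate 2 and were called under all 3 scalings. Igtp overlaps Irgm2 on the same strand, so some of its reads cannot be placed on 1 gene, with a posterior SD of 2.34 and 3.81 counts against 227 and 465 counts.

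The guanylate-binding proteins, a related class of GTPases, differed least within this role. Gbp3 was at 3.30 and 4.67 TPM (log2 ratio 0.46) and Gbp7 at 3.60 and 4.53 TPM (log2 ratio 0.50). Gbp2 was at 4.46 and 4.43 TPM and was not called (log2 ratio 0.22, adjusted p = 0.101, exact binomial test). Gbp3 was not called with the other 2 scalings and Gbp7 was not called with spike-in totals. The 3 genes lie within 108 kb on chromosome 3, and Gbp7, which overlaps a processed pseudogene on the same strand, had a posterior SD of 6.38 and 8.13 counts against 552 and 660 counts.

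The genes were next compared between the quantifications, since the first rests on an alignment and the second on direct matching of reads to an index. Levels were higher in the second throughout, by a median of 1.63-fold in replicate 1 and 1.62-fold in replicate 2 over the 33 detected genes. Nuclear protein-coding genes as a whole had medians of 1.71-fold and 1.65-fold, so the shift was that of genes in general. The order of the 39 genes was nearly the same, with a Spearman rho of 0.990 and 0.992 across genes of 1 library, which are not independent replicates and share the same reads. Mx2 departed most upward, at 2.60-fold and 2.51-fold, with 8.54 and 19.8 TPM in the second quantification. There the retained intron form Mx2-205 was at 3.71 and 6.48 TPM, beside 0 in both libraries of the first. The coding Mx2-201 was at 3.19 and 7.60 TPM in the first and 3.71 and 10.3 TPM in the second. Ifnar1 departed most downward in replicate 1, at 1.07-fold, and stood at 26.8 and 26.7 TPM in the second quantification, so that the gap between its libraries in the first was absent from the second. With the counts of the second quantification 26 of the 39 genes were higher in replicate 2 (19.2% of all genes tested there) and 3 lower (17.4%). The 3 genes that lost their call were Mx1 (adjusted p = 0.0894, exact binomial test), Oas1a (adjusted p = 0.204) and Ifit3b (adjusted p = 0.298).

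**Figure D4:**
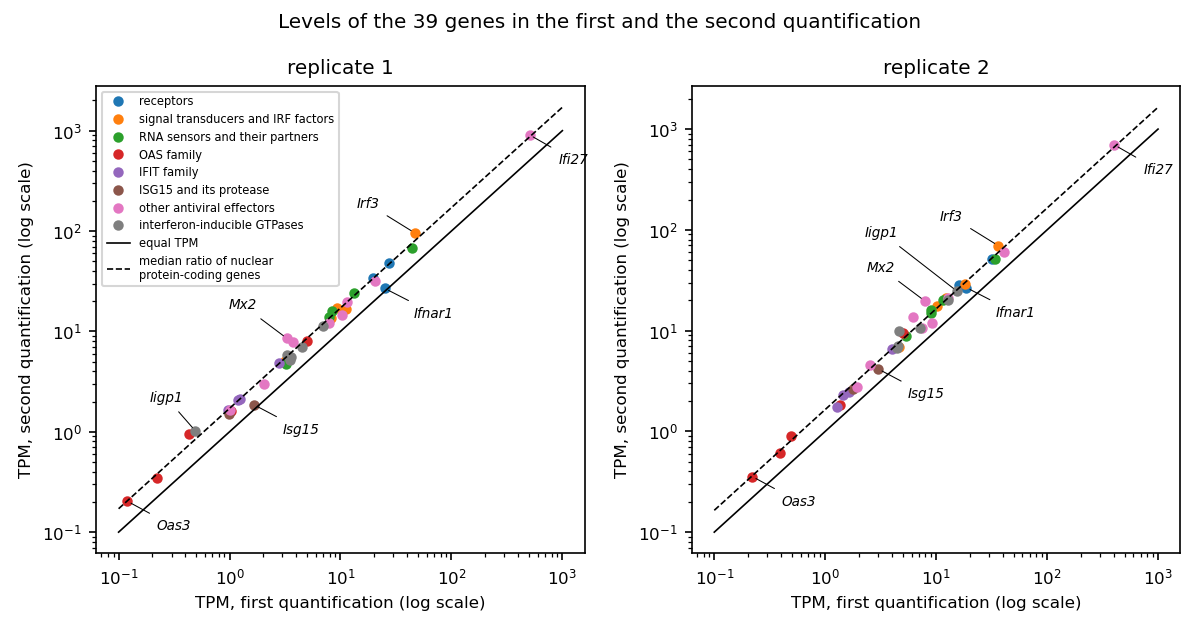
TPM of the 39 genes in the first (x axis, log scale) and the second quantification (y axis, log scale), 1 panel per library, coloured by role, with a solid line at equal TPM and a dashed line at the median ratio over all nuclear protein-coding genes. The points follow the dashed line, with Mx2 above it and Ifnar1 and Isg15 below it.

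Total RNA also holds transcripts that are not fully spliced, and the transcript tables show how much of each gene's level was placed on coding transcripts. Over the 33 detected genes the median coding share was 91.9% in replicate 1 and 92.7% in replicate 2, beside 89.4% in both for nuclear protein-coding genes. In each library 5 of the 33 were below 50% (15.2%), beside 9.74% and 9.48% of nuclear protein-coding genes in replicates 1 and 2. Ifi27 was one of them: transcripts annotated as retained introns took 64.7% and 63.2% of its level, led by Ifi27-209 at 43.9% and 43.6%. Irf3 was another, with 64.1% and 62.9% on retained introns, led by Irf3-207 at 26.5% and 31.1%. In the second quantification retained introns took less of both, 51.3% and 49.6% of Ifi27 and 47.0% and 50.3% of Irf3. Oasl2 had 49.9% and 43.7% on Oasl2-205, a transcript annotated for nonsense-mediated decay. Stat2 had 48.0% and 49.0% on its coding transcript Stat2-201. Mx1 was the last of the 5, with 0% and 11.5% on coding transcripts, beside 50.5% and 84.4% in the second quantification. Ifih1 was not among the 5, at 67.9% and 79.9% coding. It had no transcript over 50%, with 41.1% and 40.0% on the coding Ifih1-202.

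Among genes at a mean TPM of at least 2, the placement moved in 3 genes between the libraries by at least 20 percentage points. Irf7-201, a coding transcript, took 35.2% of Irf7 in replicate 1 and 73.7% in replicate 2, while the retained intron form Irf7-210 took 36.3% and 12.5%. The second quantification had Irf7-201 at 1.55 and 5.49 TPM and Irf7-210 at 2.06 and 0.0249 TPM, the same direction for both. Gbp3-202 took 57.8% and 36.4% of Gbp3, and the second quantification listed that transcript at 2.57 and 1.45e-09 TPM. The coding Gbp3-205 took 0% and 31.0%, from 0 and 18.6 counts, and was at 0 and 2.62 TPM in the second quantification. Iigp1-202 took 91.4% and 76.9% of Iigp1, and Iigp1-201 took 0% and 21.9%. The second quantification put Iigp1-201 above Iigp1-202 in replicate 2, at 14.7 against 9.47 TPM. In replicate 1 it had Iigp1-201 at 0.0552 TPM. The sizes of the splits of Gbp3 and Iigp1 therefore differed between the quantifications. Gbp3-202, Gbp3-205 and Iigp1-201 each moved in the same direction in both, and the gene levels kept the order of the libraries.

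A list of 65 other genes of the interferon pathway was measured in the same way. Of its 57 genes with enough counts 36 were higher in replicate 2 (20.7% of all tested genes) and 1, Cmpk2, was lower (18.4%). At least 2-fold higher were 13 (8.56%), and the median log2 ratio was 0.48. The interferon genes on this list were at or near 0 in the first quantification. Ifna2, Ifna4, Ifnb1, Ifng, Ifnl2 and Ifnl3 had 0 counts in both libraries, and Ifna1 had 0.5 counts in replicate 1 and 0 in replicate 2. The second quantification had Ifnl2 at 0.107 TPM in replicate 1 and Ifnl3 at 0.154 TPM in replicate 2. Interferon genes outside the list were not examined. A count of 0 allows up to 3 counts, which is 0.136 TPM for Ifnb1 and 0.127 TPM for Ifng in replicate 2. Jak1, a receptor kinase, was at 39.1 and 33.4 TPM (log2 ratio -0.04, not called). Mavs, the mitochondrial adaptor of the RNA sensors, was at 14.7 and 19.4 TPM (log2 ratio 0.65), while Tbk1, the kinase that activates IRF3, was at 12.8 and 11.1 TPM and was not called.

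The list also held membrane and nuclear effectors with larger differences. Ifitm3, which blocks virus entry from endosomes, was at 41.3 and 145 TPM in replicates 1 and 2 (log2 ratio 2.04, 1.93 to 2.16), whereas its neighbour Ifitm2 was at 171 and 184 TPM (log2 ratio 0.33). Zbp1, a sensor of Z-form nucleic acid, was at 0.36 and 1.74 TPM (log2 ratio 2.33), and Nlrc5, a transactivator of MHC class I genes, was at 0.92 and 2.14 TPM (log2 ratio 1.83). Of the GTPases, Irgm2 had a log2 ratio of 1.28 and Ifi47 of 1.66. Parp9 and Dtx3l, which act as a pair, had log2 ratios of 1.15 and 1.17, and Irf5 had 1.28. Irf2 and Adar, at 20.5 and 11.1 TPM on average, had 0.37 and 0.25. With spike-in totals 19 genes of this list were higher (10.8% of all tested genes) and 11 lower (53.3%).

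Marker lists of cell types that could carry interferon genes were set beside these values. For each count below, 20.7% of all tested genes were called higher, 18.4% lower and 8.56% at least 2-fold higher. Antigen presentation genes, many of them interferon-inducible and 1 of them (Nlrc5) also in the pathway list, were higher in replicate 2 in 17 of 18 cases, with a median log2 ratio of 0.98 and sums of 447 and 903 TPM. Of 10 macrophage genes 6 were higher and 0 lower, with sums of 112 and 121 TPM, and all 10 reached a TPM of 1 in each library. With total counts 5 of these were higher (12.7% of all tested genes) and 1 lower (43.0%). Of 8 Kupffer cell genes, markers of liver macrophages, 7 were at least 2-fold higher: Clec4f was at 0.12 and 9.64 TPM and Cd5l at 0.12 and 8.22 TPM. The Kupffer list summed to 27.6 and 49.5 TPM, of which Id3, which many cells express, gave 25.7 and 23.5 TPM. Lymphocyte markers were low in both, with 0 of 9 genes at a TPM of 1 and sums of 1.08 and 1.79 TPM. Of 8 endothelial genes 5 were lower and 0 higher, with sums of 275 and 218 TPM. With total counts all 8 were lower (43.0% of all tested genes). A list of 6 genes for plasmacytoid dendritic cells holds Bst2 itself, and of its 5 genes with enough counts Bst2 was higher and 2 were lower. The lower ones were Tcf4, at 56.4 and 39.7 TPM (log2 ratio -0.28), and Cox6a2, which skeletal muscle also expresses, with 235 and 2 counts (log2 ratio -6.64). Siglech, a specific marker of these cells, was at 0.07 and 0.17 TPM, and Spib and Ccr9 were below 1 TPM in both libraries. The part of these cell types in the differences of the interferon genes was not tested.

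**Figure D5:**
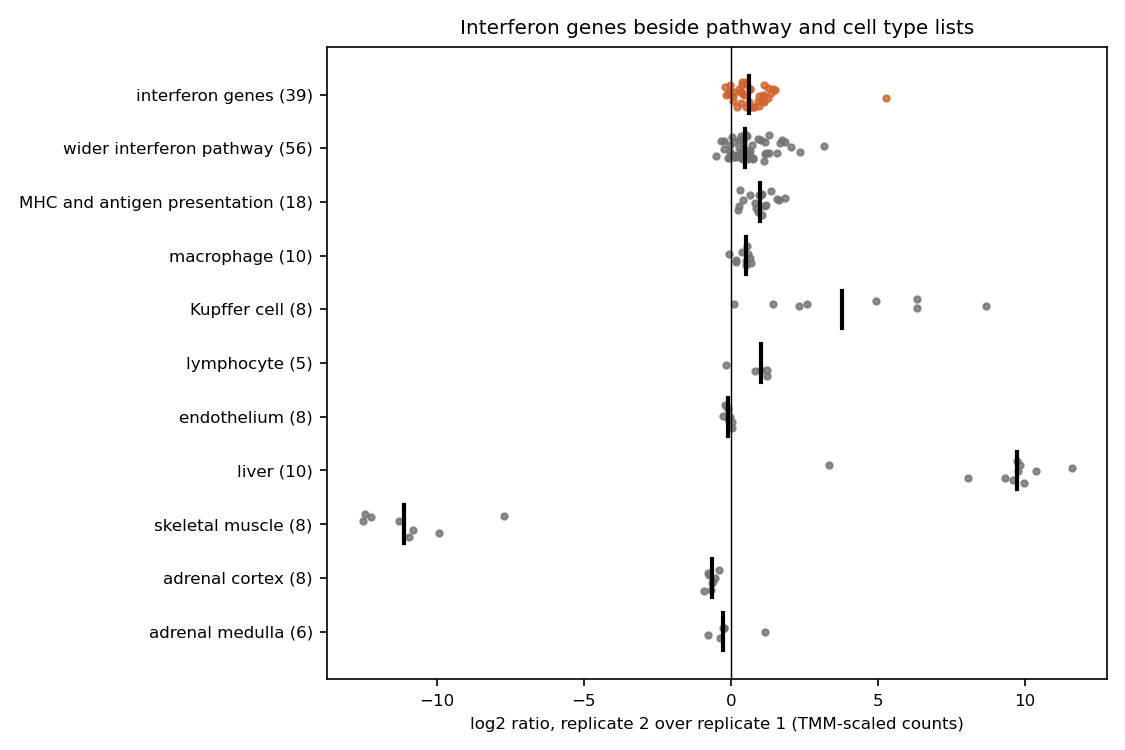
Log2 ratio of TMM-scaled counts, replicate 2 over replicate 1 (x axis), for each tested gene of the interferon set (orange) and of the pathway and cell type lists (grey), with the median of the plotted genes as a bar. Cxcl11 and Tnni2, with 0 counts in 1 library, are not drawn. The interferon genes spread around 0.62, liver genes lie near 10 and skeletal muscle genes near -11.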

How the data were processed

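Per the text deposited with each sample, reads were assigned to the mm10 assembly with annotation M21. The first quantification used transcriptome alignments, and the second matched reads directly to an index. For tool names, versions and use of strand, nothing is given in the sources used here. The authors deposited expected counts and TPM per gene and transcript, per the file headers. They also deposited the percent of each gene on each transcript, the posterior SD of each count (an other kind of value) and interval bounds of TPM, a signal that was not printed. In the second quantification, estimated counts and TPM were deposited per transcript and were summed per gene here. The authors' TPM counts spike-ins and unnamed entries in its total.

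Members were matched by symbol, and all 55536 gene identifiers matched GENCODE M21. Spike-ins (0.839% and 0.915% of counts) and entries without a gene name (8 and 6.73 counts) entered neither library sizes nor tests. Expected counts were rounded and tested gene by gene with a two-sided exact binomial test (scipy 1.17.1) against library sizes scaled by TMM (edgeR 4.0.16, factors 1.08 and 0.923). P-values were adjusted over 19801 genes with at least 10 counts. On simulated counts of 19832 tested genes for this comparison, 197 of 200 genes changed 2-fold were recovered. The simulation held counting error only, as the test assumes, and the changed genes had an expected count of at least 50. It therefore cannot show how the test performs with variation between animals or at lower counts. Alternatives were total counts, spike-in totals, DESeq2 1.42.0 size factors, other count minimums, the second quantification and an edgeR exact test with an assumed variation of 0.2. With 1 group and 2 libraries no test between groups was possible. P-values therefore cover counting error only and do not measure spread between animals. The source of a called difference may be technical.

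All 39 genes are named, and of the pathway list the 8 highest (1 gene that the rule takes is not reported here), the ligands and the called genes of at least 2-fold at a mean TPM of at least 1. Of each cell type list the rule takes the 3 highest markers and those at 0, of which only some are printed. Transcripts are the leading ones of genes with no transcript over 50% or a shift of at least 20 percentage points. Siglech, Spib, Ccr9, Cmpk2, Irf7-210, Iigp1-201, Mx1-207, Mx1-204, Oasl1-201 and Oasl1-202 were named after their values were seen. The members, lists and tests were chosen with earlier results of these data known. Promoter windows come from RefSeq (GRCm38.p6) and were searched for exact motif matches on both strands.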

Additional observations from a re-analysis of the deposited data

How the results depend on the processing

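The call counts depended on scaling more than on filters or quantification. With total counts 19 of the 39 genes were higher, 6 lower and 6 at least 2-fold higher, with a median log2 ratio of 0.39. With spike-in totals these were 16, 7, 4 and 0.26. With an assumed variation of 0.2 they were 4, 0 and 4. Of all 19801 tested genes, 1451 were at least 2-fold higher with total counts. With spike-in totals 1356 were, and with the assumed variation 1301. The median log2 ratio of the interferon genes was 0.52 with at least 50 counts, where 2 genes dropped out, and 0.52 in the second quantification. For the wider pathway list, 26 genes were higher and 5 lower with total counts (12.7% and 43.0% of all tested genes). Under spike-in totals 19 were higher and 11 lower (10.8% and 53.3%). The assumed variation gave 7 higher and 0 lower (6.57% and 1.31%). The share of TPM came to 0.141% with the second quantification and 0.237% when only nuclear protein-coding genes made up the total. The median log2 ratio of the quantifications was 0.70, 0.62 with a pseudocount of 1 in place of 0.1 and 0.69 without the filter on TPM. Taking 1 library alone, 33 to 36 genes were detected, the share was 0.0779% to 0.0831% and the quantification ratio 0.69 to 0.71.

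Some small log2 ratios changed sign. With total counts Ifi44 was at -0.13, Dhx58 at -0.15, Ifnar1 at -0.16, Gbp2 at -0.013 and Tbk1 at -0.13. With spike-in totals Ifi44 was at -0.26, Dhx58 at -0.28, Ifnar1 at -0.29, Gbp2 at -0.14, Tbk1 at -0.25, Ifi35 at -0.0055, Oasl2 at -0.032, Ifnar2 at -0.071, Xaf1 at -0.00059, Ifitm2 at -0.024 and Adar at -0.11. These changes follow from the scaling itself, which moves all genes by 1 constant. Ifngr1 was at 0.012 in the second quantification, and the cause was not tested. No paired analysis was possible because there was 1 group of 2 libraries. Depth limits the genes with the widest intervals most, which were Oas3, Oasl1, Oas2, Mx1, Isg15 and Usp18, and intervals cover counting error only.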
